A study of Bos taurus with 2 samples.

Results

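A pre-miRNA is a short hairpin whose stem gives a duplex of a 5p arm and a 3p arm, and usually one of them is loaded into an Argonaute protein while the opposite one, long called the star strand, is degraded. The opposite arm can nevertheless be loaded and guide repression of its own targets, and the balance of both arms is known to differ between tissues. In the mammary gland, miRNAs of the mir-200 family are typical of the secretory epithelium and mir-143 and mir-145 of smooth muscle and stroma.

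The 94 sequences described here are candidate bovine miRNAs (prefix CN) of the mammary gland that come from hairpins already annotated in the cow, on the arm that had no annotated miRNA. A candidate was taken when its chromosome, strand, start and end equalled those of a hairpin in the table of known miRNAs and its arm was the opposite one. The rule found 94 of the 505 candidates and of the 884 unique miRNAs listed, with 61 on the 3p arm and 33 on the 5p arm. Another 15 such arms lie in 1 stretch of chromosome 21 (chr21:65862137-66042194, BTA 4.0) and were left out. The lactation library came from 1 multiparous Holstein cow that was 6 years old and had been in milk for 2 months. The non-lactation library came from 1 multiparous Holstein cow that was 4 years old, neither lactating nor pregnant, so age and lactation state cannot be told apart. For each miRNA the reads of the commonest sequence were listed beside those of all its isomiRs, which are variants of the same arm in length or sequence. RPM are reads of this most abundant sequence scaled to the clean reads of each library. All isomiRs of the 884 miRNAs had 10259616 reads in lactation and 14747738 in non-lactation, and below, pairs of values give the lactation library first. With 1 library per condition no difference has a replicate check, the tests on reads compare these libraries and not the conditions, and all intervals cover counting error only.

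The labelled tissue was checked against marker miRNAs. All 5 epithelial hairpins (mir-200a, mir-200b, mir-200c, mir-141 and mir-429) were listed, and their known arms summed to 12201 and 1903 RPM. The 4 hairpins of smooth muscle and stroma (mir-143, mir-145, mir-199a and mir-214) summed to 8622 and 14490 RPM. Of their 5 known arms, 2 were called higher and 2 lower by the test on reads given below. The 3 hairpins of striated muscle (mir-1, mir-133a and mir-206) summed to 4480 and 696 RPM. The 5 of blood cells (mir-451, mir-144, mir-223, mir-150 and mir-142) summed to 139 and 146 RPM, but their 6 known arms went both ways. By the test on reads given below, 1 was called higher and 2 lower. The known mir-451-5p had 889 and 475 reads and mir-142-5p had 423 and 1128. Of the markers in all lists only mir-144, a red cell miRNA, had a listed 0, in the non-lactation library. The libraries thus differed in cell type markers, the part of this in the differences below was not tested, and in bulk tissue fewer cells of a type and less RNA per cell cannot be told apart.

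The CN arms of the mir-30 family are shown first, since they held the largest number of reads. The 5 printed here fall into 2 groups with a shared seed, to which the CN arm of mir-30b does not belong. The seed, bases 2 to 8 from the 5′ end, is in capitals.
CN-86-3p (mir-30a): cUUUCAGUcggauguuugcag
CN-470-3p (mir-30e): cUUUCAGUcggauguuuacag
CN-74-3p (mir-30d): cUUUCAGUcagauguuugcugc
CN-85-3p (mir-30f): cUGGGAGAaggcuguuuacu
CN-469-3p (mir-30c): cUGGGAGAggguuguuuacu

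The CN arms of let-7 hairpins are shown because let-7 known arms were the most abundant opposite arms. CN-486-3p, CN-431-3p and CN-313-3p share 1 seed, which let-7a-3p of the known table also has, and that of CN-432-3p is different.
CN-486-3p (let-7b): cUAUACAAccuacugccuuccu
CN-431-3p (let-7f): cUAUACAAucuauugccuucc
CN-313-3p (mir-98): cUAUACAAcuuacuacuuucc
CN-432-3p (let-7d): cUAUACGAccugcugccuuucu

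The next arms are those with the most reads from other hairpins.
CN-321-5p (mir-143): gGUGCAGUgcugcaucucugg
CN-322-3p (mir-145): aUUCCUGGaaauacuguucuu
CN-327-5p (mir-221): aCCUGGCAuacaauguagauuu
CN-483-3p (mir-33a): cAAUGUUUccacagugcauca

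Among CN arms with at least 20 reads, 3 had more reads than the known arm in at least 1 library, and both arms of these hairpins are given. The seed of CN-161-3p is also that of the known mir-132-3p.
CN-165-5p: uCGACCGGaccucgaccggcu
mir-1307-3p: aCUCGGCGuggcgucggucgug
CN-49-3p: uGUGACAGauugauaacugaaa
mir-542-5p: uCGGGGAUcaucaugucacga
CN-161-3p: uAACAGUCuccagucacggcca
mir-212-5p: aCCUUGGCucuagacugcuuac

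The mir-29 arms are shown because they moved apart from their known arms and have different seeds, whereas the known arms mir-29b-3p and mir-29c-3p share one.
CN-394-5p: cUGGUUUCacaugguggcuuaga
mir-29b-3p: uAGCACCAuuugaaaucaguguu
CN-395-5p: aCCGAUUUcuccugguguucaga
mir-29c-3p: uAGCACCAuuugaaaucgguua

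Finally, 4 listed hairpins show how the arms lie in the stem, here with both arms in capitals, the CN arm first in mir-143 and mir-1307 and second in mir-30a and mir-542. Positions are those listed for the bovine build BTA 4.0, and gene context was not analysed here.
mir-30a, chr9:9888794-9888860, minus strand: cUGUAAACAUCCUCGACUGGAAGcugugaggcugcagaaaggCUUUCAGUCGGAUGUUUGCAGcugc
mir-143, chr7:60268802-60268902, plus strand: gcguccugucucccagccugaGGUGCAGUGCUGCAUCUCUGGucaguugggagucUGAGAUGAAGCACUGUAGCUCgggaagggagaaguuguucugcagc
mir-1307, chr26:24439257-24439405, minus strand: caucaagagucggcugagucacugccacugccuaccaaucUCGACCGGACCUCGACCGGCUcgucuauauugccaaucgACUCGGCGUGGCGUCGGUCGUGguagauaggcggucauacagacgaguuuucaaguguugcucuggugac
mir-542, chrUn00453:441550-441646, minus strand: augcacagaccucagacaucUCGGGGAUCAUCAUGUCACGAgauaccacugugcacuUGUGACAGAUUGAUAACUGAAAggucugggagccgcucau

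The CN arms were rare beside their known arms. The 94 CN arms summed to 8976 and 7583 reads, or 750 and 475 RPM. Their known arms summed to 3068059 and 3845341 reads. The CN arm made up 0.292% and 0.197% of the reads of both arms. Reads were listed once per mature sequence, and the study places some mature miRNAs at several genomic loci. A known arm made at several loci thus counts reads of other hairpins too, and its share is not that of a single hairpin. The share of single hairpins had a median of 1.09% (quartiles 0.115% and 8.02%) in the lactation library over 94 hairpins and 0.650% (quartiles 0.0465% and 5.41%) in the non-lactation library over the 92 in which an arm was listed. Over the 71 with the CN arm in both libraries the medians were 1.13% and 1.13%. The share was under 1% in 45 and 50 hairpins, from 1% to under 10% in 29 and 24, from 10% to under 50% in 15 and 15, and 50% or more in 5 and 3. In the 23 hairpins with both arms in the table of known miRNAs, the share of the rarer arm had a median of 9.76% and 6.85%. For the 15 CN arms left out on chromosome 21 the median share was 20.4% and 26.4%, so the low share holds for the 94 only.

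**Figure D1:**
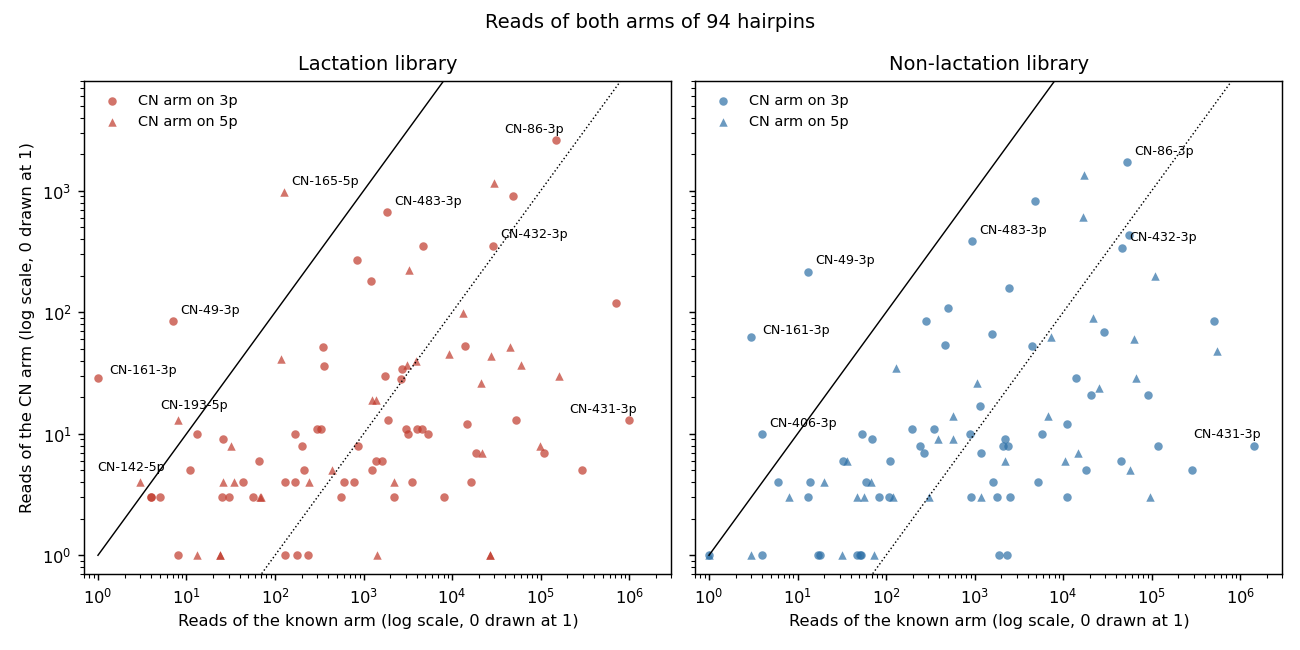
Reads of the CN arm (vertical, log scale) against reads of the known arm (horizontal, log scale) in the lactation library (left) and the non-lactation library (right), 1 point per hairpin, circles for CN arms on 3p and triangles for those on 5p, with a listed 0 drawn at 1. The solid line marks equal reads and the dotted line a CN arm with 1% of the reads of the known arm; 5 points lie above the solid line on the left and 3 on the right.

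Reads of the CN arms were concentrated in few hairpins. The 5 most abundant held 70.2% and 65% of the CN arm reads. Summed over both libraries, 6 CN arms had at least 1000 reads, 20 at least 100, 65 at least 10, and the median was 14.5 reads. Both libraries listed 71 of the 94, 13 were listed in the lactation library alone and 10 in the non-lactation library alone. No listed value above 0 was under 3 reads, and a listed 0 was treated as up to 3 reads. The same sequence could also stand under different names. CN-114-5p had 0 and 83 reads, and CN-316-5p, with the same sequence, had 69 and 0. A listed 0 can thus reflect the name that reads were assigned to, and bounds drawn from a 0 assume that it does not. Of the 23 arms in a single library 19 had at most 10 reads, and the others were CN-165-5p (968 reads), CN-193-5p (13) and CN-294-3p (11) in the lactation library and CN-395-5p (24) in the non-lactation library. The other 410 CN miRNAs with values include the 15 opposite arms left out on chromosome 21. Of these 410, 167 (40.7%) were in both libraries, against 75.5% of the CN arms described here. The others had fewer reads where listed, with medians of 7 and 6 against 10 and 9. Some of them also share a sequence under different names, as CN-114-5p and CN-316-5p do, which can lower their count. This comparison is given without a test.

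The level of the CN arm followed that of the known arm only loosely. Across the 71 hairpins with the CN arm in both libraries, log2 summed reads of both arms had a Pearson's r of 0.31 and a Spearman's rho of 0.34, as a description of hairpins that share libraries and depth. The known let-7f-5p had 1003169 and 1422718 reads, whereas its CN arm CN-431-3p had 13 and 8 reads. The known mir-33a-5p had 1819 and 939 reads, and its CN arm CN-483-3p had 668 and 384. mir-33a lies in an intron of a sterol regulator gene and is known to act on cholesterol transport. CN-483-3p made up 26.9% (95% exact binomial interval 25.1 to 28.6) and 29.0% (26.6 to 31.6) of the reads of its hairpin.

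The CN arms with the most reads were those of mir-30a, mir-143, mir-221, mir-145, mir-30e and mir-33a. CN-86-3p of mir-30a, a miRNA abundant in epithelia, had 2600 and 1718 reads, the largest number of the 94 in both. Its share of the hairpin was 1.70% and 3.13%, beside 149924 and 53130 reads of the known mir-30a-5p. CN-321-5p of mir-143 had 1159 and 611 reads, with shares of 3.77% and 3.52%. CN-327-5p of mir-221, a miRNA known to act on a cell cycle inhibitor, had 222 and 1336 reads, with shares of 6.39% and 7.19%. The order of the hairpins thus differed between the libraries, with CN-327-5p the second in the non-lactation library and the ninth in the lactation library. CN-322-3p of mir-145 had 902 and 432 reads and CN-470-3p of mir-30e 354 and 830 reads. CN-86-3p and CN-470-3p differ by 1 base over their 21 (G18A, counted from the 5′ end of CN-86-3p), so reads with an error or a shortened end could not be assigned to either with certainty. Bases 4 to 18 of the 94 CN arms occurred in 0 of the other listed miRNAs, and 10 of the 94 had at most 2 differences from another listed miRNA.

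In 6 hairpins the CN arm had more reads than the annotated arm in at least 1 library. CN-49-3p of mir-542 had 84 and 216 reads, and the known mir-542-5p had 7 and 13. The CN arm was thus 92.3% (84.8 to 96.9) and 94.3% (90.5 to 96.9) of the reads, the larger arm in both libraries. CN-161-3p of mir-212 had 29 and 62 reads and the known mir-212-5p 0 and 3, so its share was 100% (88.1 to 100) and 95.4% (87.1 to 99). mir-212 is transcribed together with mir-132, whose 3p arm carries the same seed. CN-165-5p of mir-1307 had 968 and 0 reads, and the known mir-1307-3p had 126 and 74. The CN arm was 88.5% (86.4 to 90.3) of the reads in lactation. The 0 of 74 reads in non-lactation allow a share of up to 4.05%, if the 0 means at most 3 reads. The remaining hairpins had few reads. CN-193-5p of mir-2300b had 13 and 0 reads against 8 and 3, CN-406-3p of mir-1306 had 3 and 10 reads against 4 and 4, and CN-142-5p of mir-144 had 4 and 0 reads against 3 and 0. For these last arms the 95% intervals of the share in the library with more reads ran from 38.4% to 81.9%, from 41.9% to 91.6% and from 18.4% to 90.1%, and so included equal reads of both arms.

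The study compared the lactating with the non-lactating gland. By Fisher's exact test on reads, with Bonferroni adjustment over 883 miRNAs, 15 of the 94 CN arms (16%) were called higher in the lactation library, where 17.4% of all miRNAs tested were. Another 6 (6.38%) were called lower, where 10.9% of all miRNAs were. The shares of the CN arms were thus near to or below those of all miRNAs. Among arms with at least 20 summed reads, 20 of 42 CN arms and 239 of 421 miRNAs of all kinds were called (47.6% and 56.8%). The median log2 RPM ratio was 0.39 over those 42 CN arms, 0.21 over their known arms and 0.24 over the 421. The 883 miRNAs had a median log2 RPM ratio of 0.42 with clean reads as totals and of 0.15 with TMM totals. With TMM or DESeq2 totals 10 CN arms were called higher and 6 lower, and with equal totals 9 and 6.

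The CN arms called higher included those of mir-143 and mir-145, known from smooth muscle and stroma. CN-321-5p had 96.9 and 38.3 RPM, a ratio of 2.53 (95% exact interval 2.29 to 2.80), beside 2.35 (2.31 to 2.40) for mir-143-3p. CN-322-3p had 75.4 and 27.1 RPM, a ratio of 2.79 (2.48 to 3.13), beside 1.17 (1.16 to 1.19) for mir-145-5p. With equal totals mir-145-5p, at 48288 and 54860 reads, was lower in lactation instead. Of the 5 known arms of the stromal list, which includes these hairpins, 2 were called higher and 2 lower on clean reads, and mir-199a-3p had 25123 and 159166 reads. CN-483-3p of mir-33a had a ratio of 2.32 (2.04 to 2.64), beside 2.59 (2.39 to 2.80) for its known arm. CN-297-3p of mir-532 had 270 and 109 reads and a ratio of 3.31 (2.64 to 4.17), beside 2.24 (2.00 to 2.50). The CN arm of mir-148a, a miRNA known to be abundant in milk, had few reads but a large ratio. CN-388-5p had 37 and 6 reads and a ratio of 8.23 (3.44 to 23.9), beside 7.60 (7.45 to 7.76) for mir-148a-3p.

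In lactation CN-165-5p was at least 431-fold higher, if the listed 0 of the non-lactation library means at most 3 reads. The known arm of the same hairpin, mir-1307-3p, had 126 and 74 reads, a ratio of 2.27 (1.69 to 3.07). The isomiRs of CN-165-5p, its most abundant sequence included, had 1750 reads of 21 kinds in lactation and 0 in non-lactation. They are listed under the same name, so they give no separate check of that 0. On the same assumption CN-193-5p was at least 5.78-fold higher (13 and 0 reads). Its call (Fisher's exact test, Bonferroni-adjusted p = 0.0144) was lost with TMM, DESeq2 or equal totals.

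**Figure D2:**
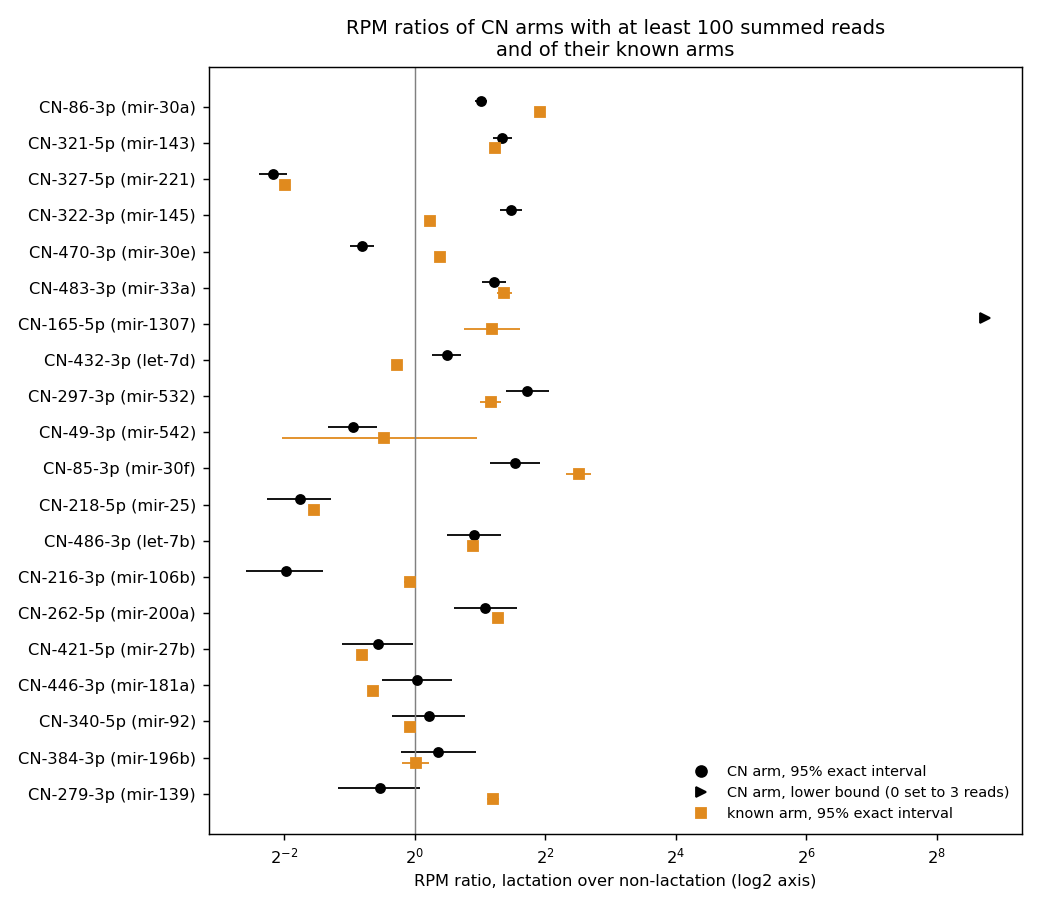
RPM ratio, lactation over non-lactation (horizontal, log2 axis), of the 20 CN arms with at least 100 summed reads (black circles) and of their known arms (orange squares), with exact 95% intervals for counting error; the triangle is the lower bound of CN-165-5p. The arms of mir-143, mir-221, mir-33a, mir-25 and let-7b lay close together. The ratios of both arms of mir-30e, let-7d, mir-139, mir-181a and mir-92 lay on opposite sides of 1. For mir-139, mir-181a and mir-92 the interval of the CN arm included 1.

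The CN arms called lower were led by that of mir-221. CN-327-5p had 18.6 and 83.7 RPM, a ratio of 0.222 (0.192 to 0.256), beside 0.252 (0.242 to 0.261) for mir-221-3p. CN-218-5p of mir-25 had 44 and 199 reads, a ratio of 0.295 (0.208 to 0.411), beside 0.342 (0.338 to 0.347) for mir-25-3p. Both arms of mir-221 and of mir-25 were thus lower in the lactation library. CN-49-3p, the larger arm of mir-542, had a ratio of 0.519 (0.398 to 0.671, Fisher's exact test, Bonferroni-adjusted p = 0.000111), while its known arm, with 7 and 13 reads, had a ratio of 0.719 (0.243 to 1.94) and was not called. The other CN arms called lower were those of mir-30e, mir-106b and mir-29c, described with their families.

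CN arms and known arms were mostly on the same side. Of the 42 CN arms with at least 20 summed reads, 41 had a known arm with a ratio, and in 30 of these both RPM ratios were on the same side of 1, 19 above and 11 below. Both arms of a hairpin were read in the same libraries and share their totals. Of the 15 CN arms called higher, 12 had a known arm called higher, 2 a known arm called lower and 1 a known arm that was not called. Of the 6 called lower, 2 had a known arm called lower, 2 a known arm called higher and 2 a known arm that was not called. On clean reads, calls in opposite directions were those of let-7d, mir-29b, mir-29c and mir-30e. The calls of the CN arms of let-7d and mir-29b were lost with TMM, DESeq2 or equal totals. With equal totals mir-30e-5p, at 4643 and 4763 reads, was slightly lower in lactation, on the same side as its CN arm. The call of the CN arm of mir-29c rested on 0 and 24 reads.

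The share of each arm in its hairpin needs no library total and was tested on its own. Where a known arm is made at several loci, a difference at another locus would also change this share. The loci were not separated here. Fisher's exact test on the reads of both arms in both libraries, with Bonferroni adjustment over 132 hairpins with 2 listed arms, called 11 of the 94 hairpins (11.7%), where 12.9% of all 132 were called. The CN arm had a larger share in the lactation library in 5 of them and a smaller share in 6. The share called was thus near that of all pairs of arms, of which 6 of the 23 hairpins with 2 known arms were called.

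Hairpins with a larger CN share in the lactation library were those of mir-1307, mir-145, let-7d, mir-29b and mir-140. The share of CN-322-3p was 1.83% (1.72 to 1.96) and 0.781% (0.710 to 0.858), an odds ratio of 2.37 (2.11 to 2.67). CN-432-3p of let-7d had 353 and 336 reads, and its share was 1.20% and 0.717%, an odds ratio of 1.69 (1.45 to 1.97). CN-394-5p of mir-29b had 37 and 14 reads, and its share was 1.18% and 0.209%, an odds ratio of 5.69 (3.0 to 11.4). CN-205-5p of mir-140, a miRNA best known from cartilage, had similar reads in both libraries (26 and 29), while mir-140-3p had 20944 and 66997. Its share was 0.124% and 0.0433%, and its odds ratio of 2.87 (1.62 to 5.05) had the weakest call of the 11 (Fisher's exact test, Bonferroni-adjusted p = 0.0233).

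Hairpins with a smaller CN share in the lactation library were those of mir-30a, mir-30e, mir-30f, mir-106b, mir-139 and mir-29c. CN-279-3p of mir-139 had 34 and 66 reads, with a ratio of 0.688 (0.441 to 1.06) that was not called. Its known arm mir-139-5p had 2727 and 1581 reads and a ratio of 2.30 (2.16 to 2.45). The CN share was thus 1.23% and 4.01%, an odds ratio of 0.299 (0.191 to 0.461). CN-395-5p of mir-29c had 0 and 24 reads. Its share was 0 of 26633 reads in the lactation library, which allows up to 0.0113% if the 0 means at most 3 reads. In the non-lactation library the share was 0.0946% (0.0606 to 0.141).

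**Figure D3:**
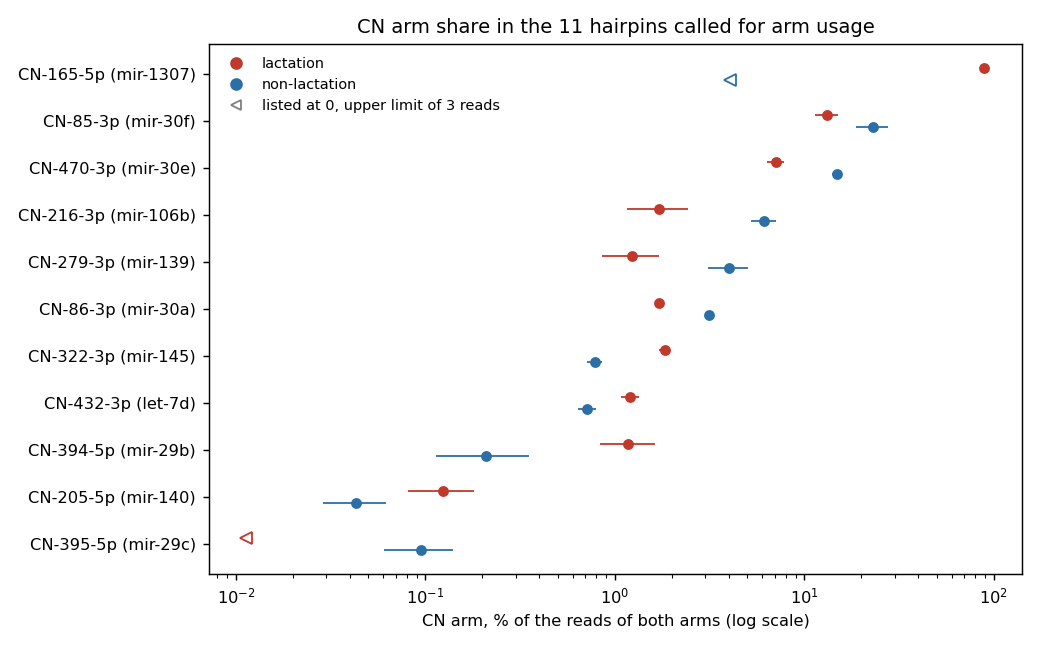
CN arm as a percentage of the reads of both arms (horizontal, log scale) in the lactation library (red) and the non-lactation library (blue) for the 11 hairpins called for arm usage, with exact 95% binomial intervals; open triangles are the upper limit of a listed 0. The mir-1307 hairpin had the largest gap, from 88.5% to 0 of 74 reads, which allows up to 4.05%.

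The mir-30 family, 6 hairpins whose known 5p arms share the mir-30 seed, had the most CN arm reads, 3162 and 2649. On clean reads all 6 known arms were called higher in the lactation library, whereas of the CN arms 2 were called higher and 1 lower. With equal totals mir-30e-5p (4643 and 4763 reads) and mir-30c-5p (876 and 900 reads) were slightly lower in lactation instead. CN-86-3p of mir-30a had a ratio of 2.02 (1.90 to 2.15), beside 3.77 (3.73 to 3.80) for mir-30a-5p, and CN-85-3p of mir-30f had 182 and 84 reads and a ratio of 2.89 (2.22 to 3.79), beside 5.71 (5.01 to 6.52). The CN arms thus rose less than their known arms. CN-470-3p of mir-30e was lower, with a ratio of 0.569 (0.501 to 0.645), while mir-30e-5p had a ratio of 1.30 (1.25 to 1.35). The odds ratios of arm usage were 0.536 (0.504 to 0.571) for mir-30a, 0.438 (0.383 to 0.499) for mir-30e and 0.507 (0.376 to 0.686) for mir-30f. The CN arms of mir-30b, mir-30c and mir-30d had at most 20 summed reads each and were not called. Shares over both libraries ranged from 0.0325% for mir-30d to 15.2% for mir-30f.

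The let-7 family, known as a brake on growth and as one of the most abundant miRNA families, was represented by 7 hairpins. Their CN arms had 519 and 484 reads, with shares over both libraries from 0.000866% for let-7f to 0.905% for let-7d. CN-432-3p of let-7d, with 353 and 336 reads, was called higher at a ratio of 1.40 (1.20 to 1.63), while let-7d-5p was lower at 0.831 (0.819 to 0.843). CN-486-3p of let-7b had 119 and 85 reads and a ratio of 1.87 (1.40 to 2.50), the same as that of its known arm (1.86). The calls of both CN arms were lost with TMM, DESeq2 or equal totals, under which their ratios stayed above 1. The other let-7 CN arms, of let-7e, let-7f, let-7g, let-7i and mir-98, had 5 to 21 reads where most abundant and were not called.

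The mir-200 family, which holds epithelial cells in their epithelial state, gave 3 hairpins. Their CN arms had 146 and 72 reads, and all 3 known arms were called higher in the lactation library. CN-92-5p of mir-141 had 40 and 3 reads and a ratio of 17.8 (5.67 to 89.9), beside 17.1 (15.2 to 19.3) for mir-141-3p. CN-262-5p of mir-200a had 98 and 62 reads and a ratio of 2.11 (1.52 to 2.95), beside 2.43 (2.36 to 2.50), and its call was lost with TMM, DESeq2 or equal totals. CN-93-5p of mir-200c had 8 and 7 reads against 97776 and 14688 of mir-200c-3p and was not called. The epithelial markers given above moved in the same direction as the CN arms of mir-141 and mir-200a, which belong to the hairpins of that list.

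The mir-17/92 cluster and its paralogs, known to promote proliferation, gave 12 hairpins. Their CN arms had 249 and 516 reads, and 1 was called higher and 2 lower, where 6 of their known arms were called higher and 3 lower. CN-216-3p of mir-106b had 30 and 158 reads and a ratio of 0.253 (0.166 to 0.376), whereas mir-106b-5p, with 1729 and 2436 reads, had a ratio of 0.947 (0.890 to 1.01) and was not called. Its share was 1.71% and 6.09%, an odds ratio of 0.268 (0.174 to 0.399). CN-218-5p of mir-25, from the same cluster on chromosome 25, was lower together with its known arm. CN-37-3p of mir-106 had 36 and 10 reads and a ratio of 4.80 (2.34 to 10.9), beside 8.82 (6.61 to 12), and its call was lost with equal totals. CN-340-5p of mir-92 and CN-217-3p of mir-93 had 52 and 60 reads and 28 and 53 reads and were not called.

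The mir-29 family, known to act on collagen and other matrix genes, gave 3 hairpins. CN-394-5p of mir-29b was called higher in the lactation library, with a ratio of 3.53 (1.86 to 7.06), and mir-29b-3p lower, with a ratio of 0.620 (0.594 to 0.647). The call of CN-394-5p (Fisher's exact test, Bonferroni-adjusted p = 0.0217) was lost with TMM, DESeq2 or equal totals, but the arm usage of mir-29b needs no total. CN-395-5p of mir-29c was called lower, at 0.167 of the non-lactation level or less if its 0 means at most 3 reads. The known mir-29c-3p was called higher, with a ratio of 1.40 (1.38 to 1.43). The hairpins of mir-29b and mir-29c lie next to each other on chromosome 16. In these libraries their CN arms differed in opposite directions, on 37 and 14 reads for CN-394-5p and on 0 and 24 for CN-395-5p. CN-444-1-5p of mir-29a had 30 and 48 reads against 162882 and 551278 and was not called. The 4 hairpins of the mir-10/99/100 family had 22 and 36 CN arm reads, with shares from 0.105% to 0.313%, and 0 of their CN arms were called, while 3 of their known arms were called lower.

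Some CN arms with at least 100 reads were not called in either test. These were CN-421-5p of mir-27b (45 and 89 reads), CN-446-3p of mir-181a (53 and 69) and CN-384-3p of mir-196b (52 and 54), beside CN-340-5p of mir-92. The 95% intervals of their RPM ratios were 0.461 to 0.976, 0.703 to 1.49, 0.861 to 1.92 and 0.782 to 1.71. The interval of CN-421-5p excluded 1, but its difference did not pass the adjustment. The arm usage of CN-446-3p was called with all isomiR reads and with Benjamini-Hochberg adjustment. A missing call at this depth does not show equal levels.

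The ends of the arms were compared with the cuts that Drosha and Dicer make, which leave a short 3′ overhang at both ends of a duplex. Both arms were found by exact match in the listed hairpin in 89 of 94 cases, and the hairpins were folded with RNAfold. At the base of the hairpin the 3p arm reached past the start of the 5p arm by 2 nt in 49 hairpins, by 1 nt in 21 and by 3 nt in 8. On the loop side the 5p arm reached past the start of the 3p arm by 2 nt in 46, by 1 nt in 16 and by 3 nt in 9. An overhang of 1 to 3 nt was thus found in 78 of 89 (87.6%) at the base, in 71 (79.8%) on the loop side and in 63 (70.8%) at both ends, and in 3 hairpins at neither end. It was found at both ends in 18 of the 26 hairpins with fewer than 10 CN arm reads (69.2%) and in 13 of the 19 with at least 100 (68.4%). The hairpin of mir-30a, printed above, had overhangs of 1 nt at the base and 0 nt on the loop side, and that of mir-143 had 2 nt at both ends. The 5 arms that did not match were CN-486-3p, CN-167-3p, CN-203-3p, CN-271-3p and CN-406-3p. In the first 4 all bases but the last at the 3′ end matched the listed hairpin.

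**Figure D4:**
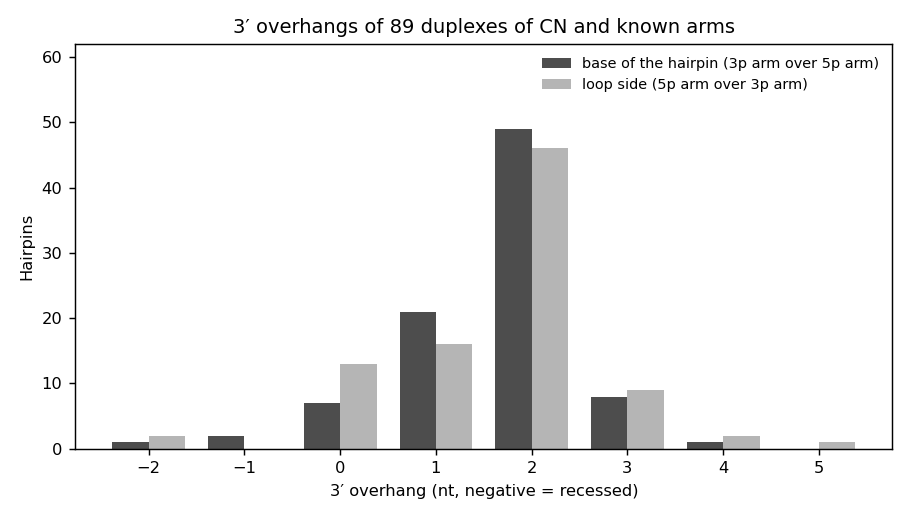
Number of hairpins (vertical) by length of the 3′ overhang in nt (horizontal, negative where the end is recessed) at the base of the hairpin (dark bars) and on the loop side (light bars), for 89 hairpins in which both arms matched. The bars at 2 nt are the tallest at both ends, with 49 and 46 hairpins.

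The first bases of CN arms and known arms were unlike. Argonaute proteins are known to favour a uracil or adenine at the first base of a guide. A uracil stood first in 14 CN arms and in 56 known arms, and a cytosine in 40 CN arms and 13 known arms. Adenine was first in 29 and 18 and guanine in 11 and 7. In 50 hairpins the known arm began with uracil and the CN arm did not, and in 8 it was the reverse. Strands whose 5′ end is less tightly paired are known to be chosen more often. Among bases 1 to 4 the CN arm held more G and C than the known arm in 49 hairpins, as many in 16 and fewer in 29, with means of 2.06 and 1.70. Of the 6 hairpins in which the CN arm had more reads, the CN arm began with uracil in 4 and held fewer G and C among its first 4 bases in 4. These counts are a description, and the 2 arms of a hairpin are complementary and so not independent.

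**Figure D5:**
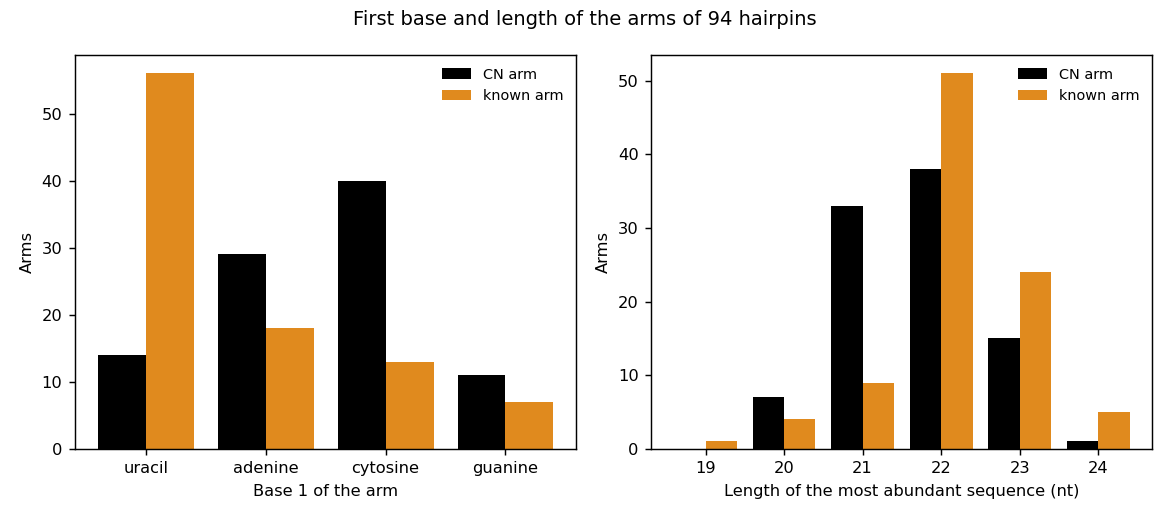
Number of arms (vertical) by first base (left) and by length of the most abundant sequence in nt (right), for the CN arms (black) and the known arms (orange) of 94 hairpins. Cytosine was the most frequent first base of CN arms, with 40, and uracil that of known arms, with 56.

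CN arms were 20 to 24 nt long. Of the 94, 33 were 21 nt and 38 were 22 nt, whereas 51 known arms were 22 nt and 24 were 23 nt. The CN arm was shorter than its known arm in 43 hairpins, as long in 37 and longer in 14. CN arms of 21 nt held 68.4% of the CN arm reads of both libraries and those of 22 nt 23.3%. CN arms on the 3p and the 5p side differed little in level, with median summed reads of 14 and 15 and median shares of 1.65% on both sides. Cytosine was the first base of 30 of 61 CN arms on 3p and 10 of 33 on 5p.

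IsomiRs of the CN arms were few. A listed CN arm had a median of 3 kinds of isomiR in each library, and the known arms had medians of 31 and 22.5. A single kind was listed for 21 and 27 CN arms. CN-86-3p had the most, 71 and 30 kinds. The number of kinds went with the number of isomiR reads (Spearman's rho 0.95 and 0.93 across the listed CN arms, which share library and depth). All isomiRs of the 94 CN arms had 22449 and 20435 reads, so the most abundant sequences held 40.0% and 37.1% of them, against 54.2% and 51.9% in the known arms. Arm by arm the order was the opposite, with medians of 56.3% and 66.7% for the listed CN arms and 43.6% and 44.0% for the known arms. For CN-470-3p of mir-30e the isomiRs raised the CN share to 13.6% and 31.8%, from 7.08% and 14.8% for the most abundant sequences. Its isomiRs had 1891 and 5119 reads, and those of CN-86-3p had 7421 and 5123. Since these arms differ by 1 base, variants of either may be counted for the other or for both. This was not tested, and the isomiR share of mir-30e has that limit.

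The 94 CN arms had 87 distinct seeds. Only 5 seeds were shared, by 12 CN arms in all. Besides the seeds of the mir-30 and let-7 arms printed above, these were the seed of the CN arms of mir-148a and mir-148b and that of the CN arms of mir-19a and mir-19b. The arms with the seed of CN-86-3p, CN-470-3p and CN-74-3p summed to 2961 and 2553 reads, the most of any seed. A seed of a known bovine miRNA of these libraries was found in 6 CN arms. Besides the arms of let-7b, let-7f and mir-98 and CN-161-3p, these were CN-306-3p of mir-99b, with the seed of mir-99a-3p, and CN-90-5p of mir-23a, with the seed of mir-23b-5p.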

How the data were processed

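Small RNA of mammary tissue from 2 cows, 1 of them in milk, was sequenced on an Illumina instrument. Adaptors, reads of low quality and reads of mRNA, rRNA, tRNA and the like had been discarded by the authors before mapping with ACGT-miR to miRBase and to the bovine build BTA 4.0. For RNA extraction and library kits the study and the labels name different products. The deposited values are raw counts, given per miRNA for its most abundant sequence and for its isomiRs together, with the number of isomiR kinds. In the CN table reads and kinds of isomiRs stand in the opposite order to the labels, since isomiR reads would otherwise be below those of the most abundant sequence, and 7 isomiR sums were left out as blank or below the most abundant sequence. In the known table, 4 CN arms (of mir-23a, mir-339, mir-19b and mir-29c) were paired through rows whose blank name or arm was filled from another row of the same unique miRNA.

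Of 884 unique miRNAs, 883 with values in both libraries were tested by Fisher's exact test (two-sided) on its reads and the remaining clean reads of each library, and calls were made at 0.05 after Bonferroni adjustment. RPM ratios have exact conditional intervals (Clopper-Pearson, 95%), shares exact binomial ones and odds ratios conditional ones. PCR copies are not independent molecules. A listed 0 was set to 3 reads per library for a bound, and no fold was given where both values were at or below 3. Such bounds assume that the reads were not assigned to another name. At this depth a ratio had an interval from 2.29 to 2.80 for CN-321-5p and from 5.67 to 89.9 for CN-92-5p. Arm usage was tested over 132 hairpins. Hairpins were folded with ViennaRNA 2.7.2 at default settings. Python 3.11.15, scipy 1.17.1, R 4.3.3, edgeR 4.0.16 and DESeq2 1.42.0 were used, the latter pair for library totals alone. The methods were tested on simulated data.

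The members, families, marker lists and tests were chosen with earlier results of these data known. Named are arms with at least 100 summed reads, arms with at least as many reads as the known arm, arms called in a test, the 6 families described, and the lone examples beside a count. Alternatives were other library totals, all isomiR reads, Benjamini-Hochberg adjustment, a minimum of 20 reads, the duplex of both arms alone and overhangs of exactly 2 nt. No genome sequence was used, and raw reads, targets, array and PCR data were not analysed here.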

Additional observations from a re-analysis of the deposited data

How the results depend on the processing

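No library could be left out, since each condition had 1 library, and these libraries hold no replicate check. The study also ran an array on RNA pooled from more cows per stage, which was not analysed here. No paired analysis was possible because a single library per condition leaves no pairs to block on. The calls rest on library totals and on read depth: 52 of the 94 CN arms had fewer than 20 summed reads, and PCR copies count as reads. With equal totals 9 CN arms were called higher in place of 15, and the share of higher calls was 60% in place of 71.4%. With TMM or DESeq2 totals 16 of the 21 calls remained, those of CN-193-5p, CN-262-5p, CN-394-5p, CN-432-3p and CN-486-3p being lost, and with equal totals that of CN-37-3p was lost too. With the sum of listed isomiR reads as totals, all isomiR reads and Benjamini-Hochberg adjustment all 21 remained, among 22, 29 and 26 calls, where 28.7%, 37.7% and 46.4% of all miRNAs were called, and with at least 20 summed reads 20 calls remained, CN-193-5p having too few reads. None of the 21 RPM ratios and 10 finite odds ratios changed direction under these alternatives.

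Arm usage was called in 20 hairpins with all isomiR reads and in 18 with Benjamini-Hochberg adjustment, in place of 11, where 38 and 32 of all 132 pairs were called in place of 17, and all 11 remained in both and with at least 20 reads of the rarer arm. The median CN arm share over both libraries, 1.65%, was 1.03% with all isomiR reads and 1.02% over arms listed in both libraries, and over the latter that of the non-lactation library was 1.13% in place of 0.650%. At least 10 reads in each library were listed for 36 CN arms in place of 71. Counting exactly 2 nt, the overhang was found at the base in 49 hairpins, on the loop side in 46 and at both ends in 30, and with the duplex of both arms alone 1 to 3 nt were found in 78, 76 and 67. The CN arm had more reads than the known arm in 6 hairpins with all isomiR reads as well, with CN-289-3p of mir-769 in place of CN-193-5p.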
